A study of Homo sapiens with 12 samples.

Results

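The genes described here are 10 Krüppel-like factors (KLFs), a family of zinc-finger transcription factors: KLF2, KLF3, KLF4, KLF6, KLF7, KLF9, KLF10, KLF11, KLF13 and KLF16. They were chosen by symbol, leaving out the erythroid factor KLF1, and all 10 are among the 28278 genes of the count table. RNA was sequenced from K562, a human erythroleukemia line that sodium butyrate, a histone deacetylase inhibitor, can move towards the erythroid lineage. Cells were WT or HRG1-KO, which lack the heme transporter HRG1 encoded by SLC48A1, and each genotype was either left untreated (control) or given 0.75 mM sodium butyrate. The first dose followed plating by 24 h and the second followed the first by 48 h. RNA was taken 6 h after the second dose, and the series design speaks of day 8 of differentiation. Each of the 4 groups has 3 libraries, numbered 1 to 3. How the knockout was made, how many clones it represents and whether replicates were separate cultures are not given in the sources used here. The p-values therefore measure the spread between these libraries, which may be technical, and an effect of the HRG1 loss cannot be told apart from a difference between clones.

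KLF proteins bind GC-rich and CACCC elements through C-terminal zinc fingers that are closely alike across the family and related to those of the SP factors. Their N-terminal regions differ and decide which partners they recruit. KLF2, KLF4, KLF6 and KLF7 are known mostly as activators, KLF3 recruits the corepressor CtBP, and KLF9, KLF10, KLF11, KLF13 and KLF16 recruit the corepressor SIN3A with its histone deacetylases. In red cell precursors KLF1 drives adult beta-globin and also KLF3, which can compete with KLF1 for CACCC elements, and KLF11 and KLF13 are known as factors that can act on the gamma-globin promoter in reporter assays.

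The clearest differences among these genes were between the genotypes. KLF13 was 2.22-fold higher in KO without butyrate and 2.65-fold higher with it, and KLF7, present at a low level in WT, was at or near the detection limit in KO. KLF6 was lower in KO in treated cells, with a log2 fold change of -0.705. With edgeR's quasi-likelihood test and Benjamini-Hochberg adjustment over all 15805 tested genes, 2 of the 9 tested KLF genes passed an adjusted p of 0.05 between untreated genotypes (1 higher and 1 lower in KO), where 22.6% of all genes passed (11.7% higher, 10.9% lower). Between treated genotypes 3 of 9 passed (1 higher, 2 lower), where 19% of all genes passed (10.1% higher, 8.89% lower). Butyrate called 0 of 9 in WT, against 2.35% of all genes (1.8% higher, 0.55% lower), and 0 of 9 in KO, against 3.4% (2.8% higher, 0.595% lower). At an unadjusted p under 0.05 it was 1 of 9 in WT, against 18% of all genes, and 1 of 9 in KO, against 19.8%. DESeq2 called 1 of 9 in WT, against 8.42% of all genes, and 0 of 9 in KO, against 9.73%. A fit with the replicate number as a block called 1 of 9 in WT (KLF6), against 8.61%, and 0 of 9 in KO, against 11.7%. With that block the genotype counts stayed at 2 of 9 (untreated, against 33%) and 3 of 9 (treated, against 29.2%). The interaction test, which takes the WT response to butyrate from the KO response, called 0 of 9 (1 unadjusted, 0 with DESeq2), against 0% of all genes (4.16% unadjusted, 0.544% with DESeq2). KLF4 was too low to enter these tests, and KLF7 entered them only through the WT libraries, where it was higher, so its counted calls are a description.

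**Figure D1:**
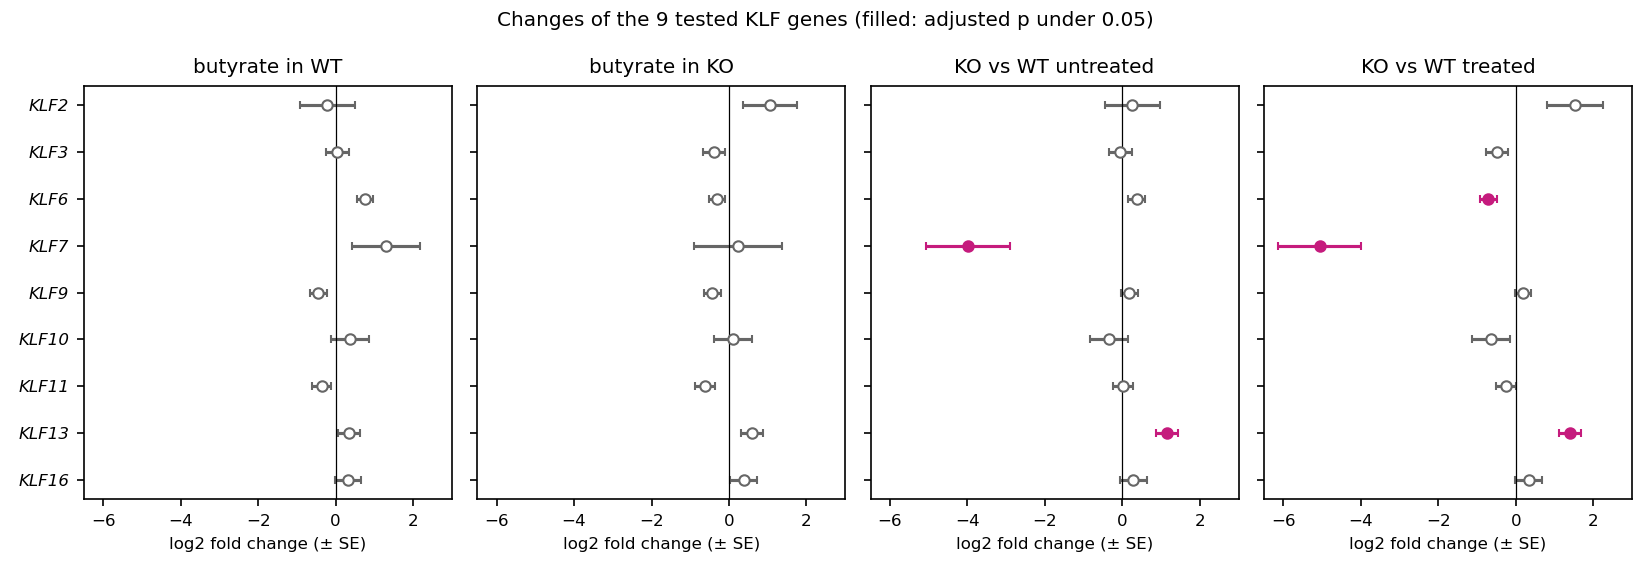
Log2 fold changes (points, x axis) with standard errors (bars) of the 9 tested KLF genes in the 4 comparisons, with filled points for an adjusted p under 0.05. KLF13, at 1.15 and 1.41, and KLF7 lie on opposite sides of 0 in both genotype comparisons, and KLF6 is filled in treated cells at -0.705; the point of KLF7 in untreated cells is a fitted value for a KO group at the detection limit, where only a bound of at least 9.63-fold can be given.

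The libraries held 19963594 to 30348538 counts. Levels are in TMM-scaled CPM, each count as a share of its library's scaled total, and 3 counts, taken as the detection limit, correspond to 0.0953 to 0.162 CPM. SLC48A1 was lower in every KO library than in any WT library, with log2 fold changes of -3.63 in untreated cells (edgeR adjusted p 1.82e-05) and -3.075 in treated cells (edgeR adjusted p 7.41e-05). Libraries numbered 1 stood apart in part: within each group they had the highest share of counts on the ribosomal RNA gene RNA28SN5, which spanned 0.673% to 5.63% over all libraries. All 9 erythroid markers were above the detection limit, and their summed level was 6240 to 13500 CPM without and 18500 to 47900 with butyrate in WT, and 3690 to 6460 without and 4950 to 6440 with butyrate in KO. The 5 megakaryocyte markers summed to 33.1 to 60.3, 117 to 227, 15.1 to 55.3 and 80.6 to 118 CPM in the same order, with PF4 at 0 throughout and GP9 at 0 in WT. The 4 monocyte markers summed to 26.5 to 36.9, 52.8 to 66.8, 5.57 to 17.8 and 41.6 to 83.5 CPM. The 3 T cell markers stayed within 1.07 to 15.5 CPM and the 3 B cell markers, with MS4A1 at 0 in every library, within 2.73 to 13 CPM. The part of these marker and library differences in the KLF values was not tested, and in bulk RNA a smaller number of cells of a type and less RNA per cell cannot be told apart.

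To compare genes, levels were divided by GENCODE exon lengths, while the annotation used for counting is not given in the sources used here. The order below therefore holds for these lengths only, and whether they fit the counts was not tested. In CPM without this division, the untreated WT means of KLF3 (81.2) and KLF10 (51.3) were above that of KLF16 (50.2). Compared per kilobase of exon, KLF16 had the highest level of the 10 in untreated WT, with 17.0 ± 0.488 CPM per kb (SD, n = 3). KLF3 followed with 12.9 ± 1.92, KLF10 with 12.8 ± 5.36, KLF9 with 6.75 ± 0.602, KLF6 with 5.50 ± 0.309, KLF11 with 4.75 ± 0.856 and KLF13 with 4.35 ± 1.51. KLF2, at 0.568 ± 0.0423, KLF7, at 0.140 ± 0.108, and KLF4, at 0.133 ± 0.0522, were far lower. Neighbours in this order whose ranges overlapped were KLF3 and KLF10, KLF10 and KLF9, KLF6 and KLF11, KLF11 and KLF13, and KLF7 and KLF4. KLF16 was also first in the other 3 groups, with overlap with the next gene, KLF10, in treated WT. KLF13 changed place most: from rank 7 in untreated WT it was at rank 5 with butyrate (5.52 CPM per kb), and in KO at rank 4 without it (9.68 ± 2.26) and rank 2 with it (14.6 ± 1.77), where its range overlapped that of KLF10. KLF1 had 102 ± 31.9 CPM per kb in untreated WT, above every one of the 10.

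**Figure D2:**
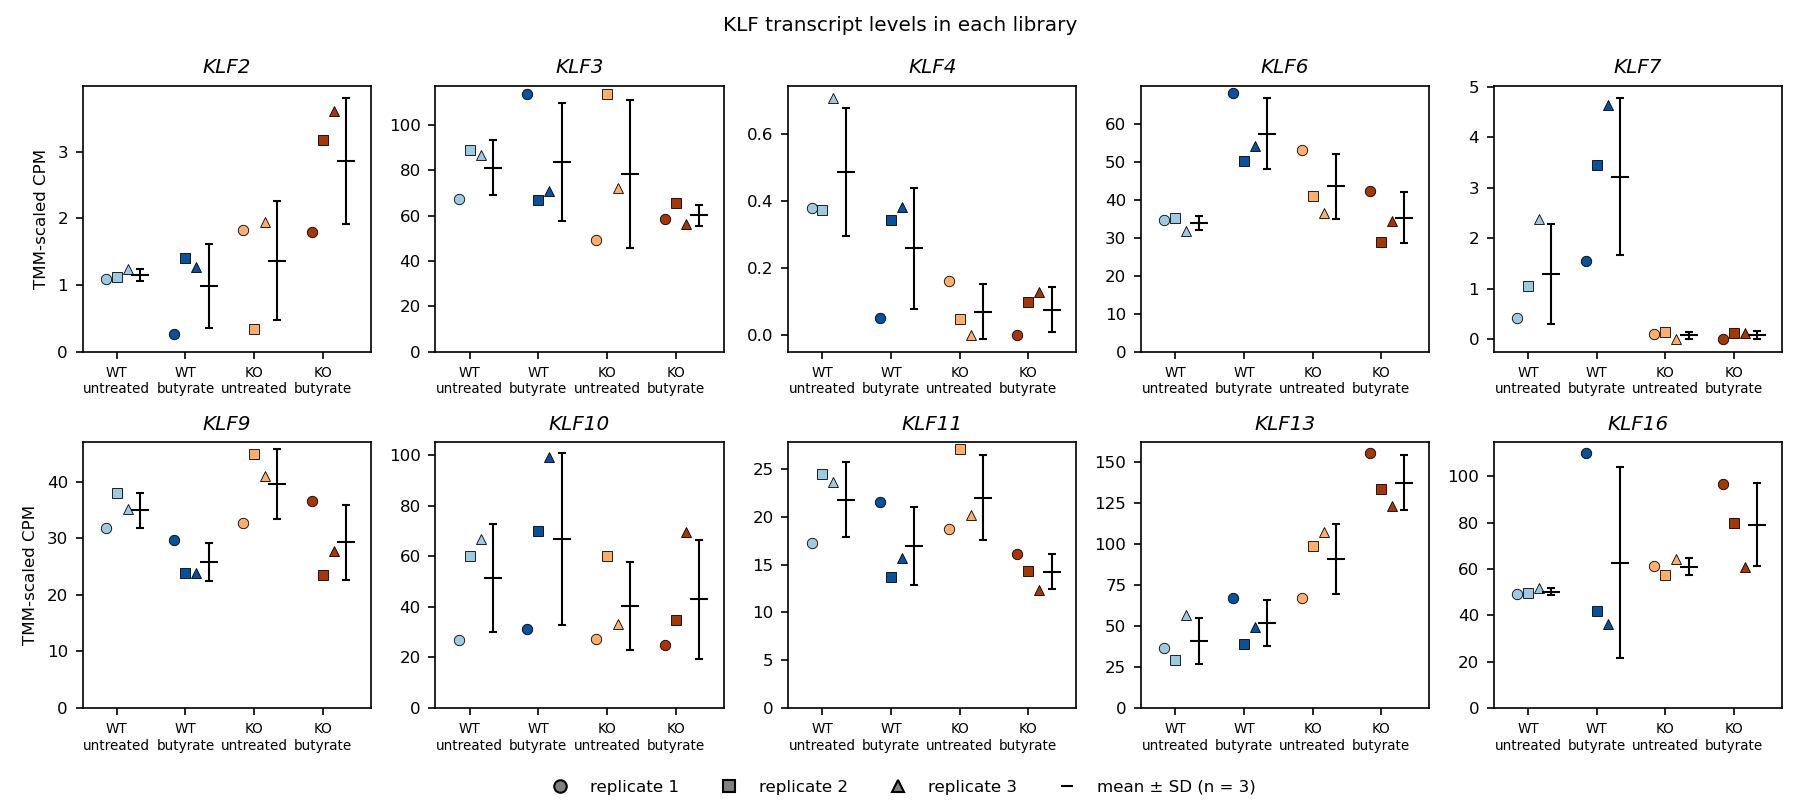
Levels of the 10 KLF genes in TMM-scaled CPM (linear y axes, one panel per gene) in the 4 groups, with symbols for replicates 1 to 3 and bars for the mean ± SD of 3 libraries. KLF13 is higher and KLF7 lower in every KO library than in any WT library of the same treatment, and 1 treated WT library lifts KLF16 to 110 CPM while the other 2 are at 41.7 and 36.3.

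Of the mostly activating members, KLF6, which is expressed in many tissues and has been studied as a tumour suppressor, had butyrate differences of opposite sign in the genotypes. Untreated WT had 34.5, 35.2 and 31.6 CPM in replicates 1, 2 and 3, and treated WT had 67.9, 50.2 and 54.0. All 3 treated WT libraries were above all untreated ones. The log2 fold change of 0.765 (SE 0.211) did not pass in edgeR (adjusted p 0.0817), while it passed with the replicate number as a block (0.75, edgeR adjusted p 0.0184) and in DESeq2 (0.78, adjusted p 0.0103). In KO the untreated libraries had 53.0, 41.0 and 36.4 CPM and the treated ones 42.2, 28.9 and 34.4. Each treated KO library lay below the untreated one of its number, the groups overlapped, and the log2 fold change was -0.305 (SE 0.21, edgeR adjusted p 0.457). The difference between these 2 butyrate effects was -1.07 (SE 0.297, unadjusted p 0.0034), with an adjusted p of 0.599 in edgeR, 0.141 with the block and 0.108 in DESeq2.

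Between genotypes, KLF6 was lower in KO once cells were treated. All 3 treated KO libraries were below all 3 treated WT libraries, and the log2 fold change was -0.705 (SE 0.21, edgeR adjusted p 0.0331). This call was lost without treated WT replicate 1 (adjusted p 0.0747) or replicate 3 (0.0515), without treated KO replicate 2 (0.111) or replicate 3 (0.0774), with no filter on low counts (0.0511) and in a fit of the compared groups alone (0.0917), while the log2 fold change stayed within -0.854 to -0.577. In untreated cells the order was the other way, with every KO library above every WT library, and a log2 fold change of 0.365 (SE 0.21, edgeR adjusted p 0.245) that did not pass.

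**Figure D3:**
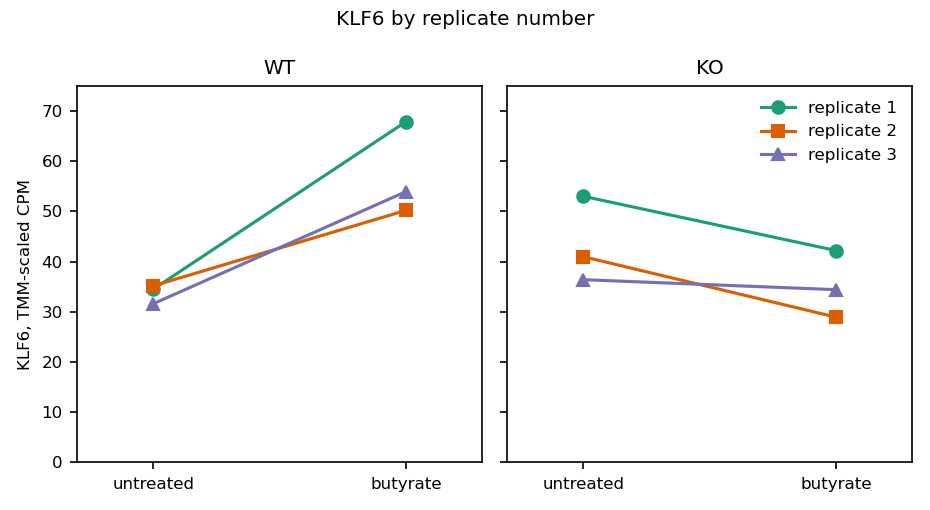
KLF6 in TMM-scaled CPM (linear y axis) without and with butyrate (x axis), with lines joining libraries of the same replicate number in WT and in KO. Every line goes up in WT, to between 50.2 and 67.9 CPM, and every line goes down in KO, to between 28.9 and 42.2 CPM.

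KLF7, an activator best known from neurons and also a brake on adipocyte differentiation, was low in WT and almost undetected in KO. Untreated WT libraries held 8, 23 and 71 counts (0.433, 1.07 and 2.39 CPM), and treated WT libraries 30, 81 and 146 counts (1.56, 3.46 and 4.64 CPM). The WT groups overlapped, although the treated library exceeded the untreated one in all 3 same-numbered pairs, and the log2 fold change of 1.299 (SE 0.879) did not pass (edgeR adjusted p 0.484). In KO the counts were 2, 3 and 0 without butyrate and 0, 4 and 4 with it. No KO library therefore held more than 4 counts, and none reached the lowest WT library. Since all untreated KO libraries were at or under the detection limit, KLF7 was at least 9.63-fold lower there (edgeR adjusted p 0.0189). In treated cells the fitted log2 fold change was -5.06 (33.4-fold lower, SE 1.075, edgeR adjusted p 0.0058). There the KO mean of 0.087 CPM lay under the mean detection limit of 0.111 CPM, so the size of this fold is uncertain. KLF7 entered the tests only through the WT libraries, where it was higher, so both calls are a description. The treated call held in all 19 alternatives that could test it. The untreated one was lost without untreated WT replicate 3 (adjusted p 0.0768), untreated KO replicate 1 (0.0511) or untreated KO replicate 3 (0.0553). In a fit of the untreated groups alone KLF7 did not pass the filter on low counts and was not tested.

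KLF2, an activator known for keeping endothelial cells and T cells quiescent, was low in every group. WT held 1.08, 1.11 and 1.24 CPM untreated and 0.259, 1.41 and 1.27 treated, and KO held 1.82, 0.333 and 1.94 untreated and 1.79, 3.17 and 3.61 treated. Treated KO stood above every treated WT library, but the log2 fold change of 1.53 (SE 0.713, edgeR adjusted p 0.162) did not pass. KLF4, one of the factors used to reprogram cells to pluripotency, gave only 7, 8 and 21 counts in WT without butyrate and 1, 8 and 12 with it, and in KO 3, 1 and 0 without and 0, 3 and 4 with it. Set against the detection limit, KLF4 was at least 3.61-fold lower in untreated KO than in untreated WT. With no filter on low counts that difference did not pass (edgeR adjusted p 0.209). In a fit without the libraries numbered 1 the difference passed (edgeR adjusted p 0.0325), where 26.2% of all genes passed. KLF4 entered that fit only through the WT libraries, where it was higher, so this call is a description.

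KLF3, the CtBP-recruiting repressor, was among the more abundant members and passed in no comparison. WT held 67.3, 89.2 and 87.0 CPM untreated and 114, 67.0 and 70.7 treated, and KO held 49.1, 114 and 72.2 untreated and 58.7, 65.4 and 56.3 treated. One library each set the highest values of treated WT (replicate 1) and untreated KO (replicate 2). All treated KO libraries lay below all treated WT libraries, with a log2 fold change of -0.478 (SE 0.29, edgeR adjusted p 0.292). KLF3-AS1, the only transcript in the table named after a member, had means of 0.531 (untreated) and 0.735 CPM (treated) in WT and 1.19 and 0.919 in KO, and its adjusted p was 0.311 or more in every comparison. Whether the counting used strand is not given in the sources used here, so reads of KLF3 and its antisense partner cannot be told apart where they overlap.

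The SIN3A-recruiting members differ in the sequence before the starts listed for them. RefSeq promoter entries (GRCh38.p14) were found for 8 of the 10 genes, with 12 listed starts in all. These are not every start of the genes. The listed start of KLF16, at 1863579 on the minus strand, lies inside the annotated span of the gene, which reaches 1876536. Those of KLF7 and KLF11 also lie inside the spans of their genes. The searched bases before the starts of KLF2, KLF6, KLF11 and most starts of KLF7 overlapped exons of the same gene. The 250 bases upstream of the start were searched on both strands for CACCC, for the GC box GGGCGG, for CCAAT and for TATAAA, counting overlapping matches. In this group the level of KLF13 differed between genotypes, while the genotype comparisons of KLF16 and KLF9 did not pass with all libraries. The sequences of these genes are shown here, with capitals for the matches in either strand. They are KLF13 at chr15:31326585-31326834 (plus strand), KLF16 at chr19:1863580-1863829 (minus strand) and KLF9 at chr9:70414658-70414907 (minus strand), each written 5′ to 3′ and ending just before the start.
KLF13: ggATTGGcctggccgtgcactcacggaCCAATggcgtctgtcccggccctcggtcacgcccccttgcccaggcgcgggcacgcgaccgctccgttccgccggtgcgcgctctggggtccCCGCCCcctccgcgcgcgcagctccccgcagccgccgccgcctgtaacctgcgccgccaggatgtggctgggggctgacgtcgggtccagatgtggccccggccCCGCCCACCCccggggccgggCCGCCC
KLF16: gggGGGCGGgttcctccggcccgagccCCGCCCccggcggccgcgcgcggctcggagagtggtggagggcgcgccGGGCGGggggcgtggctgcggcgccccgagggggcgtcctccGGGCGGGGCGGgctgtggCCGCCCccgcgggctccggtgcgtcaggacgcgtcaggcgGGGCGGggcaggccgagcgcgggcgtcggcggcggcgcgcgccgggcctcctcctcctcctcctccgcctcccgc
KLF9: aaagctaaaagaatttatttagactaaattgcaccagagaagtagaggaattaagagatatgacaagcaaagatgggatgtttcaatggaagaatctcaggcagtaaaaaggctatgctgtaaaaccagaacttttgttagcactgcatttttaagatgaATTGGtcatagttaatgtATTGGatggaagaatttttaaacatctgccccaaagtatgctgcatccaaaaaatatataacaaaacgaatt
KLF13 had 3 GC boxes, 1 CACCC that overlaps a GC box and 2 CCAAT boxes in 250 bases with 78.8% G and C. KLF16 had 7 GC boxes, of which 1 pair overlaps, and no other match, at 86.4% G and C. KLF9 had 2 CCAAT boxes and no other match, at 32.4% G and C. Over all 35116 promoter entries, 54.7% held CACCC, 42.6% GGGCGG, 32.0% CCAAT and 10.7% TATAAA. Of the other members, KLF6 had 2 GC boxes and 2 CCAAT boxes, KLF2 and KLF4 had 4 GC boxes each, and the several starts of KLF7 and KLF11 differed among themselves. TATAAA matched in none of the 12 starts. A match describes letters only and shows no binding, and a link of these letters to the levels was not tested.

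**Figure D4:**
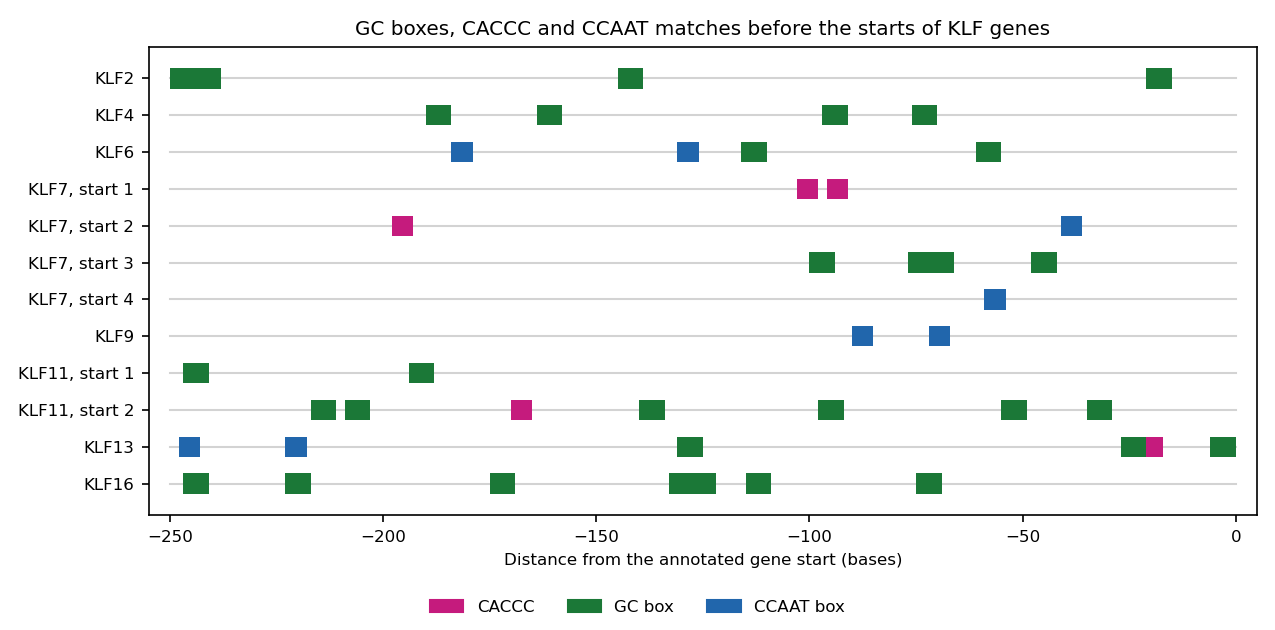
Matches of CACCC, the GC box GGGCGG and CCAAT (coloured blocks, either strand) along the 250 bases before each of the 12 listed starts of 8 KLF genes. The x axis gives the distance from the start in bases. Listed starts are not every start of a gene, and those of KLF16, KLF7 and KLF11 lie inside the annotated gene. KLF16 shows 7 GC boxes and KLF9 only 2 CCAAT boxes, while KLF13 carries all 3 kinds.

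KLF13, a repressor and activator that also controls the chemokine gene CCL5 in T cells, was higher in KO with and without butyrate. Untreated WT had 36.8, 29.2 and 56.8 CPM, and untreated KO had 67.1, 98.6 and 108. Every KO library was above every WT library, and the log2 fold change was 1.153 (SE 0.281, edgeR adjusted p 0.0106). In treated cells WT had 67.1, 39.2 and 49.4 CPM and KO 156, 134 and 123. Here too the groups did not overlap, with a log2 fold change of 1.408 (SE 0.282, edgeR adjusted p 0.00401). Both calls held in all 20 alternatives tried. The untreated one came close to the threshold without untreated KO replicate 3 (edgeR adjusted p 0.0488), and the treated one reached at most 0.0233. Leaving out single libraries gave log2 fold changes of 0.963 to 1.45 in untreated and 1.243 to 1.626 in treated cells. Within KO all treated libraries exceeded all untreated ones, but the log2 fold change of 0.60 (SE 0.277, edgeR adjusted p 0.257) did not pass, and in WT it was 0.341 (SE 0.278, edgeR adjusted p 0.576). The KO response minus the WT response was 0.254 (SE 0.392, edgeR adjusted p 1).

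KLF16, a repressor related to KLF13, had 49.2, 49.6 and 51.8 CPM in untreated WT and 61.4, 57.3 and 64.5 in untreated KO. These untreated groups did not overlap, but the log2 fold change of 0.283 (SE 0.345, edgeR adjusted p 0.616) was small against the fitted spread. In treated cells WT had 110, 41.7 and 36.3 CPM and KO 96.9, 80.0 and 60.7. Replicate 1 of treated WT was thus the highest library of all, and replicates 2 and 3 the lowest. With all libraries the treated genotype difference was 0.336 (SE 0.345, edgeR adjusted p 0.562). Without that one library it was 1.012 (adjusted p 0.00564), and without all libraries numbered 1 it was 0.83 (adjusted p 0.0143). KLF1 was high in the same treated WT library, with 329 CPM against 77.5 and 67.4 in replicates 2 and 3.

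KLF9 and KLF11 had lower values with butyrate in 5 of 6 same-numbered pairs each, and did not pass in the test. KLF9, a target of the glucocorticoid and thyroid hormone receptors, had 31.7, 38.0 and 35.1 CPM in untreated WT and 29.7, 23.8 and 23.8 in treated WT. These WT groups did not overlap, and the log2 fold change was -0.442 (SE 0.216, edgeR adjusted p 0.31). In KO it had 32.8, 44.9 and 41.0 CPM untreated and 36.6, 23.6 and 27.7 treated, which overlap (-0.435, SE 0.216, edgeR adjusted p 0.29). KLF11, a factor induced by TGF-beta, had 17.3, 24.5 and 23.6 CPM in untreated WT and 21.5, 13.7 and 15.7 in treated WT (-0.362, SE 0.255, edgeR adjusted p 0.505). In KO it had 18.7, 27.1 and 20.2 CPM untreated and 16.1, 14.4 and 12.3 treated. All treated KO libraries lay below all untreated ones, with a log2 fold change of -0.626 (SE 0.255, edgeR adjusted p 0.195). Replicate 1 was the exception to the direction for KLF11 in WT and for KLF9 in KO. In a fit without the libraries numbered 1, both genes passed in KO, KLF9 at -0.762 (edgeR adjusted p 0.0269) and KLF11 at -0.838 (adjusted p 0.0416), in a setting where 13.1% of all genes passed, and neither passed in WT (adjusted p 0.0559 and 0.0729).

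KLF10, an early response gene of TGF-beta signalling, varied widely between replicates. WT had 26.9, 60.2 and 66.9 CPM untreated and 31.4, 70.1 and 99.3 treated, and KO had 27.2, 60.0 and 33.3 untreated and 24.7, 34.8 and 69.5 treated. Replicate 1 was the lowest in each of the 4 groups, and all groups overlapped. The largest of its 4 differences was -0.639 (SE 0.491, edgeR adjusted p 0.42) between treated genotypes.

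Counted by library, the groups did not overlap for 2 of the 9 tested KLF genes in WT with butyrate (KLF6 higher, KLF9 lower), where this held for 21.7% of all genes (11.3% higher, 10.4% lower), and for 2 in KO with butyrate (KLF13 higher, KLF11 lower), where it held for 24.4% (12.6% higher, 11.8% lower). Between untreated genotypes it held for 4 (KLF6, KLF13 and KLF16 higher in KO, KLF7 lower) against 42.3% of all genes (22.2% higher, 20.2% lower). Between treated genotypes it held for 5 (KLF2 and KLF13 higher, KLF3, KLF6 and KLF7 lower) against 33.9% (17.9% higher, 16% lower). The median log2 fold changes over the 9 genes were 0.32, 0.10, 0.18 and -0.25 in the 2 butyrate and the 2 genotype comparisons, beside 0.03, 0, 0.02 and -0.002 over all tested genes. The comparisons of a genotype share libraries with those of a treatment, so their values are given side by side only.

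The genotype differences were also set beside those of neighbouring genes, as a description. The 20 nearest tested genes of KLF13 on chromosome 15 had a median log2 fold change of -0.434 in untreated and -0.147 in treated cells, and the chromosome as a whole -0.236 and -0.187, against 1.153 and 1.408 for KLF13 itself. Around KLF7 on chromosome 2 the neighbours had medians of 0.608 and 0.426, while the gene was at least 9.63-fold lower in untreated KO and had a log2 fold change of -5.06 in treated cells. KLF13 and KLF7 lay on the other side of 0 from the median of their neighbours in both comparisons, and so did KLF2, KLF3 and KLF9. In untreated cells this also held for KLF6, KLF10 and KLF11. Single neighbours spread widely, from -1.093 to 7.323 around KLF13 and from -6.478 to 3.988 around KLF7 in untreated cells. The part of the neighbourhood in these differences was not tested. Around KLF6 on chromosome 10 the medians were -0.638 in untreated and -0.189 in treated cells. For KLF16 on chromosome 19 the neighbours had 0.252 and 0.266, close to its own 0.283 and 0.336. In the annotation KLF13 spans chr15:31326835-31435665, KLF7 chr2:207074137-207173851, KLF6 chr10:3775996-3785209 and KLF16 chr19:1852399-1876536 (RefSeq, GRCh38.p14).

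**Figure D5:**
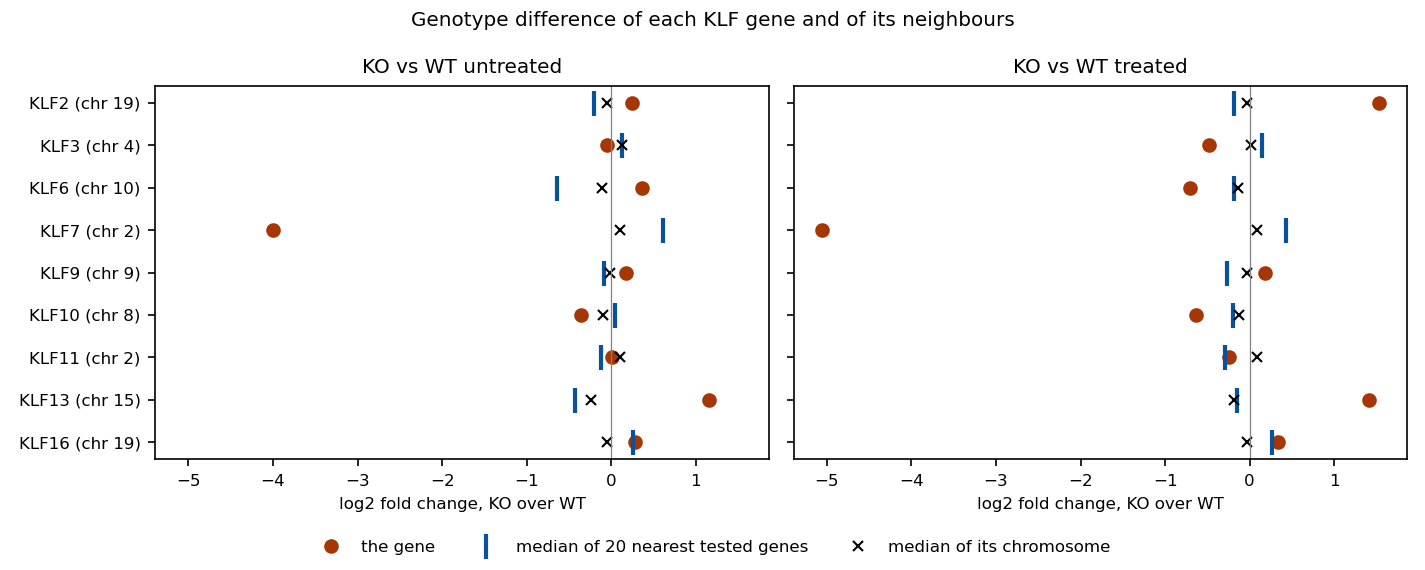
Log2 fold changes between genotypes (x axis) of each tested KLF gene (dots), the median of its 20 nearest tested genes (bars) and the median of its chromosome (crosses), in untreated and treated cells. KLF13, at 1.153 and 1.408, lies on the other side of 0 from its neighbours' medians, as do KLF2, KLF3 and KLF9. So does KLF7, at -5.06 in treated cells and at a fitted value with KO at the detection limit in untreated cells. KLF16 lies beside its neighbours' medians of 0.252 and 0.266.

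The other 8 KLF genes, KLF1, KLF5, KLF8, KLF12, KLF14, KLF15, KLF17 and KLF18, gave 6 tested genes. Of these, 2 were called higher in KO in both genotype comparisons, where 11.7% (untreated) and 10.1% (treated) of all genes were called higher. KLF8, a CtBP-recruiting relative of KLF3 on the X chromosome, held 1, 0 and 0 counts in untreated WT and 82, 163 and 321 in untreated KO, and 0, 2 and 1 in treated WT and 147, 236 and 305 in treated KO. It was at least 56.8-fold higher in untreated and at least 64.3-fold higher in treated KO (edgeR adjusted p 2.57e-05 and 4.52e-05). Like KLF14, KLF8 entered the tests only through the KO libraries, where it was higher, so the calls of both genes are a description. KLF14, which has a single exon and is close to KLF16 in sequence, held at most 5 counts in any WT library and 17 to 43 in KO, at least 10.1-fold higher in untreated KO (edgeR adjusted p 0.00638) and 14.3-fold higher in treated KO (adjusted p 0.0207, lost without treated WT replicate 3 or treated KO replicate 1, adjusted p up to 0.084 over all alternatives). KLF12, the third of the CtBP-recruiting members, held at most 6 counts in any untreated library, and 4, 61 and 33 in treated WT and 14, 144 and 45 in treated KO. Its butyrate effects did not pass in edgeR (adjusted p 0.129 in WT and 0.0578 in KO). The one in KO passed with the replicate block (adjusted p 0.0326), and both passed in DESeq2 (adjusted p 0.0285 and 0.00221). KLF12 entered the tests only through the treated libraries, where it was higher, so these results are a description. KLF1 had means of 165 ± 51.4 CPM without and 158 ± 148 with butyrate in WT, and of 78.3 ± 24.8 and 103 ± 67.8 in KO (SD, n = 3). Its difference between untreated genotypes, -1.071, had an edgeR adjusted p of 0.228, or 0.0449 with the replicate block.

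Among the 9 SP factors, which bind the same GC boxes, SP1 (109 to 139 CPM as group means) and SP3 (97.1 to 120) were abundant and passed in no comparison. SP6 rose with butyrate in KO, from 3.22 to 21.3 CPM (log2 fold change 2.72, SE 0.486, edgeR adjusted p 0.0132, lost without untreated KO replicate 1 or 2, with an adjusted p up to 0.0916), and was lower in untreated KO than in untreated WT (-2.40, SE 0.481, adjusted p 0.00332). SP7, the osteoblast factor osterix, was higher in KO in both comparisons (5.85, SE 0.962, adjusted p 0.000883, and 5.77, SE 0.835, adjusted p 0.000464), from 0.108 to 5.55 CPM in untreated and from 0.702 to 37.6 CPM in treated cells. With butyrate its difference in KO, 2.755, did not pass in edgeR (adjusted p 0.0545) but did with the replicate block (0.0186). SP7 would not have entered the tests without its KO libraries, where it was higher, so its genotype calls are a description. In all, edgeR called 1 of 9 SP factors with butyrate in KO, against 3.4% of all genes. In WT it called 0 (1 unadjusted, 1 with DESeq2), against 2.35% (18% and 8.42%). Between genotypes it called 2 of 9 untreated, against 22.6%, and 1 of 9 treated, against 19%. With the replicate block these were 2, 0, 3 and 2, against 11.7%, 8.61%, 33% and 29.2% of all genes. SP9 was added in both genotype comparisons (adjusted p 0.00953 and 0.00734).

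Of 12 cofactors that KLF proteins recruit, butyrate called 0 in WT and 0 in KO in edgeR. At an unadjusted p under 0.05 and with DESeq2 it also called 0 in WT and 0 in KO. Over all genes the shares in WT and KO were 2.35% and 3.4% in edgeR, 18% and 19.8% unadjusted, and 8.42% and 9.73% with DESeq2. HDAC1 was higher in KO (0.62 untreated, 0.635 treated, edgeR adjusted p 0.0352 and 0.037) and HDAC3 lower (-0.58 and -0.73, adjusted p 0.0351 and 0.0133), and the median over the 12 was -0.02 in untreated and -0.06 in treated cells. Per comparison this was 1 higher and 1 lower of 12, where 22.6% (untreated) and 19% (treated) of all genes passed. These 4 calls lay near the threshold. Leaving out 1 of the 12 libraries lost that of HDAC1 in 6 fits for untreated and 7 for treated cells and that of HDAC3 in 6 and 2, while the log2 fold changes stayed at 0.439 to 0.712 and 0.519 to 0.689 for HDAC1 and at -0.651 to -0.513 and -0.858 to -0.611 for HDAC3. Of 12 genes that act upstream of KLF genes or on KLF protein turnover, 1 was higher and 3 were lower in KO in each genotype comparison. Over all genes 11.7% were called higher and 10.9% lower (untreated), and 10.1% and 8.89% (treated). Butyrate called 0 of these 12 in WT (1 unadjusted, 0 with DESeq2) and 0 in KO (3 unadjusted, 0 with DESeq2), beside the shares above. With the replicate block, MEF2D (higher, adjusted p 0.0466) and TGFBR1 (lower, adjusted p 0.0334) passed with butyrate in KO, where 11.7% of all genes passed. Between untreated genotypes 3 were higher and 3 lower with the block, where 33% of all genes passed. MEF2A was higher (1.28 and 1.18), while MEF2C (-1.13 and -1.52) and the glucocorticoid receptor gene NR3C1 (-1.86 and -1.63) were lower, all with an edgeR adjusted p of 0.00459 or less. TGFBR2, the type II TGF-beta receptor gene, held 0 counts in each untreated KO library and at most 3 in treated KO. It was at least 21.8-fold and at least 15.6-fold lower (edgeR adjusted p 0.000341 and 0.00287). TGFBR2 entered the tests only through the WT libraries, where it was higher, so its calls are a description.

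Of 11 textbook targets of KLF factors, 10 were tested. In edgeR, butyrate called 0 in WT (3 unadjusted, 3 with DESeq2) and 2 in KO, both higher: the cell cycle inhibitor gene CDKN1A, from 2.45 to 22.7 CPM (log2 fold change 3.20, SE 0.604, edgeR adjusted p 0.0179), and the sphingosine receptor gene S1PR1, from 2.14 to 11.6 CPM (2.42, SE 0.567, adjusted p 0.0381). The call of CDKN1A was lost without untreated KO replicate 1 or 2 or treated KO replicate 2 (adjusted p up to 0.0997), and that of S1PR1 in 7 of 12 fits that left out 1 library (up to 0.175). With the replicate block, S1PR1 passed as higher (adjusted p 0.0328) and TXNRD2 as lower (0.0171) with butyrate in WT, and 3 targets as higher and 1 as lower in KO, LGALS3 (0.0187) and TXNRD2 (0.0461) being added. Between untreated genotypes 2 were higher and 3 lower in KO, and between treated genotypes 2 were higher and 1 lower, or 2 and 2 with the block. S1PR1 (2.55 untreated, 3.05 treated) and the thrombomodulin gene THBD (2.79 and 2.58) were higher in both, LGALS3 (-2.72 and -1.89) was lower in both, and CDKN1A was lower in untreated KO (-3.19, adjusted p 0.00228). The median over the 10 targets was 0.77 and 0.79 with butyrate in WT and KO, and -0.70 and -0.12 between untreated and treated genotypes. Over all genes, butyrate called 2.35% in WT and 3.4% in KO in edgeR. These shares were 18% and 19.8% unadjusted, 8.42% and 9.73% with DESeq2, and 8.61% and 11.7% with the block. The genotype comparisons called 22.6% (untreated) and 19% (treated) of all genes in edgeR, or 33% and 29.2% with the block.

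For each tested member the 2 genes with the most similar pattern were taken from genes with a mean of at least 50 counts, by Pearson's r of log2 CPM over the 12 libraries. These libraries share groups and depth, so r is a description. KLF13 was closest to BHLHE40 (0.969) and USP12 (0.96), KLF7 to FIGNL1 (0.97) and MAD2L1BP (0.958), and KLF6 to GOLGA7 (0.894) and STOML1 (0.879). KLF16 was closest to SLC10A4 (0.948) and PITX1 (0.938), KLF11 to HIVEP1 (0.955) and TAPT1 (0.94), KLF9 to RHOT1 (0.934) and HCG11 (0.927), and KLF10 to IQGAP3 (0.929). KLF3 was closest to CRTC3 (0.911) and WASF2 (0.892), and KLF2 to GUSBP11 (0.902) and SLC17A5 (0.861). Among the members themselves the highest values were 0.774 for KLF9 and KLF11, 0.735 for KLF3 and KLF11 and 0.643 for KLF13 and KLF16, and the lowest were -0.844 for KLF2 and KLF3 and -0.743 for KLF7 and KLF13.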

How the data were processed

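The authors deposited raw integer counts by gene symbol, in 1 table of 12 libraries. Per the submitters' processing notes, FastQC 0.12.1 and STAR 2.7.11b were used with hg38, while the counting tool, annotation and use of strand are not given in the sources used here. Columns were matched to samples by library name, and 0 were unused.

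In R 4.3.3, edgeR 4.0.16 kept 15805 genes by filterByExpr (minimum count 10), scaled libraries by TMM and fitted a mean per group to all 12 libraries. P-values of quasi-likelihood F-tests were adjusted over these genes (Benjamini-Hochberg, threshold 0.05). The fitting code was tested on simulated data. DESeq2 1.42.0, RLE size factors, library size alone, other filters, the compared groups alone, a replicate block and leaving out libraries were alternatives, added after seeing the data for genes other than the members. A fold against a group with no library above 3 counts is a lower bound, taken against that limit and averaged over its libraries. That limit covers counting error only. Levels per kilobase used GENCODE 29 exon lengths, and positions came from RefSeq for 15165 of 15805 tested genes (96%).

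Libraries of the same replicate number deviated together from their group means (r 0.195 to 0.409 with butyrate in WT, 0.147 to 0.468 in KO, 0.21 to 0.361 between untreated and 0.315 to 0.595 between treated genotypes). Differently numbered pairs reached 0.186, 0.123, 0.069 and 0.343, so the ranges overlapped between treated genotypes. As every same-numbered value was above 0.1, the numbers were taken to pair samples. The main fit holds a mean per group only and leaves this pairing out, so its p-values are unpaired. Only the alternative with the replicate block uses the pairing. Named genes are all members, SLC48A1, the KLF and SP families, called genes of the other lists (at most 4 per list, largest log2 fold change first) and the 2 genes most like each member, of which 1 is not reported here. KLF4 falls below the filter. Members and lists were chosen with earlier results of these data known.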

Additional observations from a re-analysis of the deposited data

Results flagged for a closer look

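KLF6 had butyrate differences of opposite sign in the genotypes: all 3 same-numbered pairs went up in WT (log2 differences of 0.967, 0.508 and 0.763 on CPM plus 0.5) and all 3 went down in KO (-0.326, -0.495 and -0.08). The KO response less the WT response was -1.07 in edgeR (SE 0.297, unadjusted p 0.0034, adjusted p 0.599 over all genes). The adjusted p over all alternatives ranged from 0.108 to 1, so the difference passed in none of them.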

How the results depend on the processing

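Of 879 values of single members under alternatives, 819 kept their direction and side of the threshold, 9 lost and 6 gained a call, and 45 changed sign, none of these past the threshold. The number of KLF members called with butyrate in WT was 1 with DESeq2 and 1 with the replicate block (KLF6 in both), where 8.42% and 8.61% of all genes passed. Called KLF members with butyrate in KO were 2 without the libraries numbered 1, where calls over all genes went from 537 to 2164 (13.1%). Between untreated genotypes, 1 of the KLF members was called with at least 10 counts in every library and 1 with only the compared groups, since KLF7 was not tested in either. Leaving out single libraries called 1 to 2 KLF members between untreated and 2 to 3 between treated genotypes, and 0 in the other tests. Without the libraries numbered 1, sign changes were KLF2 0.17, KLF3 -0.37 and KLF16 -0.39 (butyrate in WT), KLF2 -0.038, KLF3 0.057 and KLF11 -0.044 (untreated genotypes) and KLF9 -0.13 (interaction). KLF11 between untreated genotypes, 0.014 as reported, was -0.013 with DESeq2, -0.012 with RLE, -0.01 with library size alone and -0.014 under the strictest low-count filter. Leaving out single libraries spanned 0 for KLF10 (butyrate in KO -0.423 to 0.503, in WT -0.019 to 0.715, interaction -0.805 to 0.123), KLF11 (untreated genotypes -0.189 to 0.12), KLF13 (interaction -0.062 to 0.496), KLF16 (butyrate in WT -0.374 to 0.593, interaction -0.214 to 0.756), KLF2 (untreated genotypes -0.14 to 0.683, butyrate in WT -0.56 to 0.211), KLF3 (untreated genotypes -0.445 to 0.198, butyrate in WT -0.246 to 0.179), KLF7 (butyrate in KO -0.425 to 0.945) and KLF9 (treated genotypes -0.002 to 0.299, interaction -0.184 to 0.141). The cause of these changes was not tested. Over all genes, calls ranged from 43 to 1884 with butyrate in WT, 48 to 2164 in KO, 2334 to 5217 and 1802 to 4612 between untreated and treated genotypes and 0 to 86 for the interaction. The replicate block changed no other call of a member than that of KLF6 in WT, and over all genes it called 1361, 1852, 5217, 4612 and 3 in the same order. Library size alone moved the median of all genes in KO with butyrate from 0 to 0.121. In that setting 90.5% of the calls there were higher, against 82.5%, and 62% against 53.3% between treated genotypes. With counts this low, differences of KLF4 and KLF7 within KO were not detectable at this depth.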
